A study of Rattus norvegicus with 144 samples.

Results

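Islet hormone and beta-cell transcripts were read in the pancreas of rats dosed by mouth every day with AMG A or AMG B, compounds the study describes as antiangiogenic. The genes were Ins1, Ins2, Gcg, Sst, Ppy, Iapp, Pdx1, Mafa, Slc2a2 and Pcsk1, chosen by name, and a probe set belonged to a gene where the array's annotation gave that symbol. That rule found 9 probe sets among the 31042 of the larger table, 1 for each gene except Pcsk1, which was not analysed here (9 of 14217 named genes). The animals were male Sprague Dawley rats of 8 to 10 weeks, and each group held 4 of them. Pancreas was taken on day 14 only, on 24 arrays in 6 groups: undosed, 3 mg/kg or 30 mg/kg in the AMG A study, and undosed, 3 mg/kg or 60 mg/kg in the AMG B study. The undosed pancreases were assigned to a study by animal number, and the labels do not say from which part of the organ tissue was taken. Adrenal and liver of undosed animals served as tissues without islets.

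Islets are small clusters of endocrine cells scattered through the enzyme-secreting acinar tissue. Beta cells store insulin, made in the rat from the Ins1 and Ins2 genes, together with amylin, the product of Iapp. Alpha cells make glucagon (Gcg), delta cells somatostatin (Sst) and PP cells pancreatic polypeptide (Ppy). Pdx1 and Mafa encode transcription factors that bind the insulin promoters, and Slc2a2 encodes the glucose transporter GLUT2 of rat beta cells and liver. Pcsk1 encodes a convertase that processes proinsulin. In whole pancreas, fewer cells of a type and less RNA per cell cannot be told apart.

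The insulin promoters are printed because Ins1 and Ins2 moved together. The Gcg promoter is printed because glucagon was not called at the high dose of AMG B, where both insulin genes were called lower. That does not show that glucagon moved apart from insulin. Within groups Ins1 and Gcg varied together in part (Pearson r = 0.547). Each run covers the 250 bases before the transcription start in RefSeq's GRCr8 table, read 5′ to 3′ on the gene's strand. Ins1 starts downstream of chr1:261185869-261186118 on the plus strand, Ins2 of chr1:207273806-207274055 on the minus strand and Gcg of chr3:67531534-67531783 on the minus strand. Capitals mark matches, on either strand, to CATCTG (an E box, the kind of element NEUROD1 binds), TAATG (an A box, bound by PDX1), TCAGC (the core of a Maf site) and TATAAA (the core promoter's TATA box).
Ins1: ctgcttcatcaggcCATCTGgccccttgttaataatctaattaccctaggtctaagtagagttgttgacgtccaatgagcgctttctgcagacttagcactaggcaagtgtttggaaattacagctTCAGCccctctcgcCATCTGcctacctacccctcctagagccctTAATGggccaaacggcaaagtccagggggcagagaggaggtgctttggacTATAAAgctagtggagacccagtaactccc
Ins2: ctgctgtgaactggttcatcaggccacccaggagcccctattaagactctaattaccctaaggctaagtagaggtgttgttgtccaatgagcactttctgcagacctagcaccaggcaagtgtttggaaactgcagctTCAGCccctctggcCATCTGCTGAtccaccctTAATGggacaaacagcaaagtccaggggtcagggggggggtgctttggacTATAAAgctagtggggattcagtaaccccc
Gcg: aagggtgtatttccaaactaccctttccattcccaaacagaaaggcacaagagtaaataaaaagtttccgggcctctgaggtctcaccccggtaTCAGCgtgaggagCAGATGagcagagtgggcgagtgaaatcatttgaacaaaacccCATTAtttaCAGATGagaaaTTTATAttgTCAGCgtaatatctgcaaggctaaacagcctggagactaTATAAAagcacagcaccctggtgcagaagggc
The Ins1 and Ins2 runs were identical at 205 of 262 aligned columns (78.2%), and Ins1 and Gcg at 114 of 267 (42.7%). In both insulin genes the A box began at position -80 and the TATA box at -30, counted back from the start. The E box nearest the start lay at -110 in Ins1 and at -98 in Ins2, where it overlapped a second Maf core. Over the 33469 promoters of the table, taken at the same length, 14.0% held the E box, 26.0% the A box, 45.2% the Maf core and 12.9% the TATA box. All 4 motifs were present in 93 promoters (0.278%), among them Ins1, Ins2 and Gcg. The E box, A box and Maf core are elements of islet transcription factors, so finding them in insulin promoters is no independent result. Of the other members in the table, Sst, Ppy, Iapp, Pdx1 and Slc2a2 held between 1 and 2 of the 4 motifs. The table gave a promoter for 8 of the 10 genes, without Mafa and Pcsk1. A match is a description of the letters and not a bound site.

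The deposited values are scores. Each probe set was centred on its own mean over arrays of the series and divided by its own SD. So 1 unit is 1 SD of that probe set, 0 is its mean and no fold change can be given. Which arrays set the mean and SD is not stated and may differ between probe sets. Levels of different genes cannot be compared on this scale. A score can be placed between the mean of the undosed adrenals (0%) and the mean of the undosed pancreases of the same study (100%), which is called the percent of the control distance here.

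In undosed animals Ins1, Ins2, Iapp, Mafa, Pdx1 and Gcg were read far above adrenal and liver, and Sst less clearly so. Slc2a2 was above adrenal but below liver, and Ppy was not called against liver. Ins2 scored 2.67, 2.60, 2.54 and 2.28 in pancreas of the AMG B controls, against -0.442 to -0.438 in adrenal and -0.432 to -0.412 in liver of the same animals. Ins2 stood above adrenal by 2.96 (limma adjusted p = 3.47e-10). With limma (moderated tests, Benjamini-Hochberg adjusted p under 0.05), 9 of 9 members were higher in pancreas than in adrenal in the AMG A study, where 27.0% of all probe sets were higher and 56.3% differed. In the AMG B study 8 of 9 were higher, beside 30.9% of all probe sets higher and 62.3% differing. Against liver, 7 of 9 were higher (29.8% of all probe sets) and Slc2a2 was lower (difference -1.74), beside 29.1% of all probe sets lower and 58.8% differing.

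Sst scored 0.343 to 1.94 in control pancreas of the AMG A study and 0.316 to 4.10 in that of the AMG B study, against at most -0.259 in adrenal. Its call above adrenal in the AMG A study (limma adjusted p = 0.0172) was kept without animal 3009 and lost without animal 3010, 3011 or 3012 (up to 0.0915). The call of Slc2a2 there (0.0336) was likewise kept in 1 of 4 such fits (up to 0.130). In the AMG B study both genes were called in all 4. All tissues shared a spread estimate for each probe set in that fit. The SD of Sst in the AMG B controls was 1.72 in pancreas and 0.0827 in adrenal, so the p-values of tissue calls are approximate.

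Slc2a2, made by hepatocytes as well as by beta cells, scored 0.886 to 1.31 in liver, -0.895 to -0.269 in control pancreas and -1.10 to -1.08 in adrenal of the AMG B study. Its order was liver, pancreas, adrenal, with no overlap between tissues. Ppy scored -0.341 to 0.551 in pancreas of the AMG B controls and -0.396 to 0.349 in liver, which overlapped (difference 0.0350, limma adjusted p = 0.974). In the AMG A controls Ppy ran from -0.350 to 5.66, the widest range of a member in undosed pancreas. The call of Ppy above adrenal there had an adjusted p of 0.00795, and of 0.0785 in a paired fit with the animal as a replicate block.

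**Figure D1:**
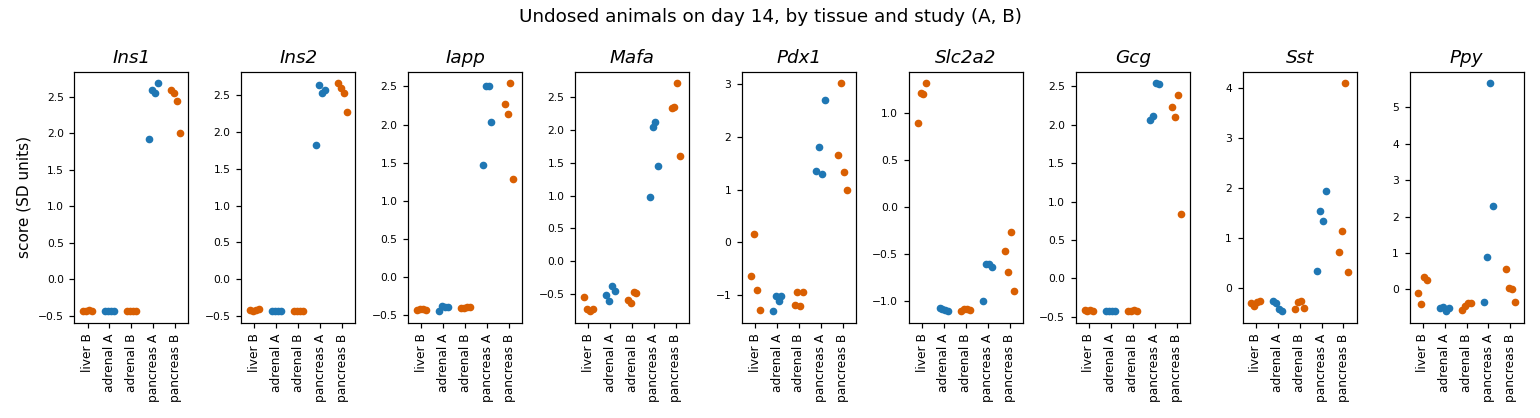
Score (vertical axis, SD units of the probe set, a separate scale for each gene) of the 9 members in undosed animals on day 14; each point is 1 animal, blue for the AMG A study and orange for the AMG B study. Ins1, Ins2, Iapp, Mafa, Pdx1 and Gcg lie far above adrenal and liver in pancreas, Sst ranges from 0.316 to 4.10 there, Slc2a2 is highest in liver, and Ppy in the AMG B pancreases (-0.341 to 0.551) overlaps liver.

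Control animal 28 of the AMG B study stood apart: it was the lowest of its 4 controls for 9 of 9 members. The share of all probe sets for which it was lowest was not counted. Its mean was also the lowest control for islet transcription factors (0.725) and prohormone processing genes (0.103). It was the highest control for genes of glucose sensing and secretion (0.482) and of other islet endocrine cells (0.0920). It also had the highest mean score over 8 fat-cell genes of the 24 pancreases (2.76, against 0.146 to 0.318 in the other 3 controls) and the highest acinar mean (2.81). The part of these cell types in its islet values was not tested. Values without it are given below for Ins1, Mafa and Gcg at 60 mg/kg of AMG B. Other differences moved as well. Without it, Iapp at 60 mg/kg went from -0.391 to -0.649 and Pdx1 from -0.131 to -0.385. The Gcg difference at 3 mg/kg of AMG B went from 0.401 to 0.0510. None of these was called with or without it.

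Insulin transcripts fell at 60 mg/kg of AMG B. Ins1 and Ins2 were lower than in controls of the same study in every animal, Mafa was lower in every animal but missed the threshold, and glucagon and somatostatin were not called. Of 9 members, 2 were called and both were lower, beside 9.88% of all probe sets called (4.98% higher, 4.90% lower). The groups did not overlap for 4 members, 3 below and 1 above, beside 17.9% of all probe sets (9.52% below, 8.37% above). The median difference of the 9 members was -0.131, beside -0.0172 over all probe sets.

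Ins2 scored 2.67, 2.60, 2.54 and 2.28 in controls and 1.77, 1.76, 1.61 and 1.61 at 60 mg/kg. The lowest control lay well above the highest dosed animal. Ins2 fell by 0.830 (95% interval -1.26 to -0.397, limma adjusted p = 0.0161), to 72.0% ± 3.00 of its control distance (SD, n = 4). The call held when any 1 of the 8 animals was left out, with adjusted p between 0.0186 and 0.0456.

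Ins1 scored 2.59, 2.55, 2.44 and 2.00 in controls and 1.78, 1.73, 1.64 and 1.68 at 60 mg/kg. The groups were again apart, with control animal 28 nearest to the dosed ones. Ins1 fell by 0.686 (95% interval -1.10 to -0.274, limma adjusted p = 0.0332), to 75.8% ± 2.14 of its control distance (SD, n = 4). This call was narrow. It was lost without control animal 25, 26 or 27 or dosed animal 33, 34, 35 or 36 (adjusted p 0.0537 to 0.0910) and was kept without animal 28 (0.0189).

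Both insulin calls depended on how the arrays were scaled and on the spread estimate. After quantile normalization of the 24 arrays the Ins2 difference was -0.434 (adjusted p = 0.325) and the Ins1 difference -0.281 (adjusted p = 0.491). With only these 2 groups in the limma fit, the differences were as before and the adjusted p was 0.0700 for Ins2 and 0.131 for Ins1. Ins1 and Ins2 are close paralogs, and whether the probes of 1 read the transcript of the other was not tested.

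Mafa, the transcription factor of mature beta cells, scored 2.33, 2.35, 2.71 and 1.60 in controls and 0.689, 1.48, 1.04 and 1.26 at 60 mg/kg. The groups did not overlap. Its difference of -1.13 (95% interval -1.89 to -0.378) had a limma adjusted p of 0.0519, which did not pass. Mafa stood at 59.5% ± 12.0 of its control distance (SD, n = 4). The adjusted p was 0.0339 without control animal 28 and 0.143 without dosed animal 33.

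The other 3 beta-cell genes overlapped between the groups. Iapp scored 2.27, 2.13, 2.54 and 1.28 in controls and 1.15, 2.33, 1.15 and 2.05 at 60 mg/kg (difference -0.391, limma adjusted p = 0.614). Dosed animals 33 and 35 were low in Iapp and animals 34 and 36 lay within the control range. Pdx1, needed for pancreas formation and for insulin transcription, scored 1.65, 3.02, 1.34 and 0.988 in controls and 0.981, 1.57, 1.97 and 1.94 at 60 mg/kg (difference -0.131, 95% interval -1.03 to 0.764, limma adjusted p = 0.886). Slc2a2 scored -0.476, -0.695, -0.269 and -0.895 in controls and -0.837, -0.635, -0.328 and -0.579 at 60 mg/kg (difference -0.0112, 95% interval -0.368 to 0.346, limma adjusted p = 0.980). The intervals of Pdx1 and Iapp were wide enough to include differences as large as that of Ins2.

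None of the hormones of the other islet cells was called at 60 mg/kg of AMG B, and their mean scores were above those of controls. Gcg scored 2.23, 2.10, 2.39 and 0.841 in controls and 2.30, 2.53, 2.76 and 2.39 at 60 mg/kg. Control animal 28 stood well below the others, and without it the Gcg difference shrank from 0.602 (limma adjusted p = 0.341) to 0.252 (0.720). Sst scored 0.719, 1.14, 4.10 and 0.316 in controls and 1.99, 6.03, 2.86 and 2.32 when dosed (difference 1.73, 95% interval -0.163 to 3.62, limma adjusted p = 0.237). Control animal 27 lay inside the dosed range of Sst, and dosed animal 34 was the highest of all 24 arrays. Ppy scored 0.551, 0.0314, 0.0223 and -0.341 in controls and 0.941, 2.74, 1.33 and 0.570 when dosed. The groups of Ppy did not overlap, but the difference of 1.33 (95% interval -1.05 to 3.71) had a limma adjusted p of 0.496.

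**Figure D2:**
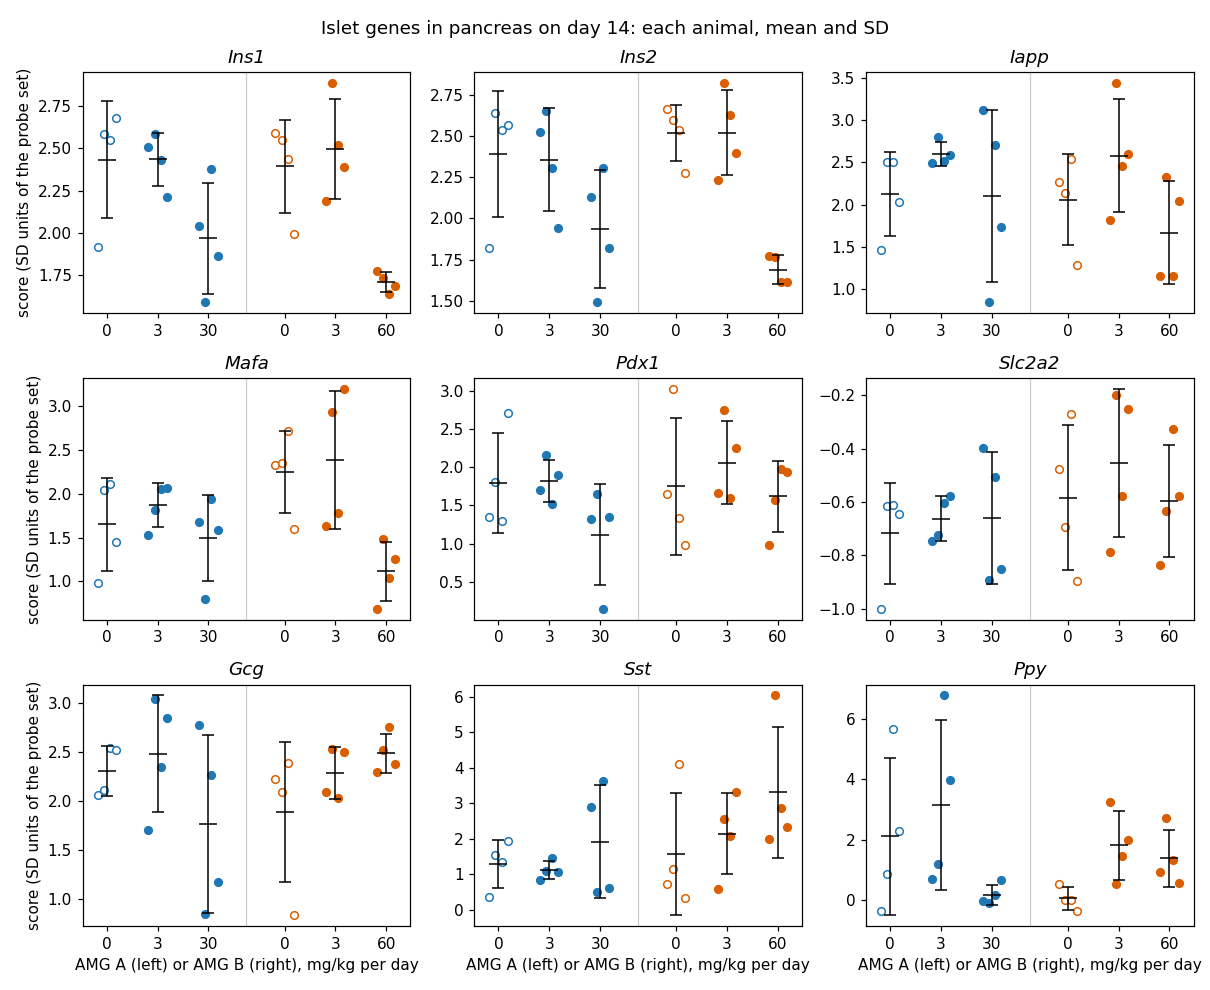
Score (vertical axis, SD units of the probe set, a separate scale for each gene) of the 9 members in pancreas on day 14 by daily dose in mg/kg; points are animals (open, undosed), bars the mean and SD of 4. The 4 animals on 60 mg/kg of AMG B lie between 1.64 and 1.78 for Ins1 and between 1.61 and 1.77 for Ins2, below all their controls, while the means of Gcg, Sst and Ppy are above control at that dose.

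Within single animals at this dose, insulin lay below and glucagon above its control mean, but the control mean of glucagon rests on animal 28. In animals 33, 34, 35 and 36, Ins2 stood at 74.7%, 74.5%, 69.4% and 69.4% of its control distance and Gcg at 118%, 127%, 137% and 121%. The Gcg of controls 25, 26, 27 and 28 stood at 115%, 109%, 122% and 54.6%, so animals 33 and 36 lay within the range of the first 3 controls and animals 34 and 35 above it. The ratio of these percents was 0.634, 0.584, 0.505 and 0.572. In the 20 other pancreases it ran from 0.704, in animal 3024 on 3 mg/kg of AMG A, to 1.68, in control animal 28. The 4 dosed animals lay below all of them on this scale. Animal 28, at 54.6% for Gcg and 91.8% for Ins2, lowers the control mean of Gcg more than that of Ins2. Every ratio of the AMG B study is lower for it. Without animal 28 the control distance was 2.66 in place of 2.32 for Gcg and 3.04 in place of 2.96 for Ins2. On those distances animal 33 no longer lay below animal 3024. The ratio was not tested and was chosen after the values were seen.

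**Figure D3:**
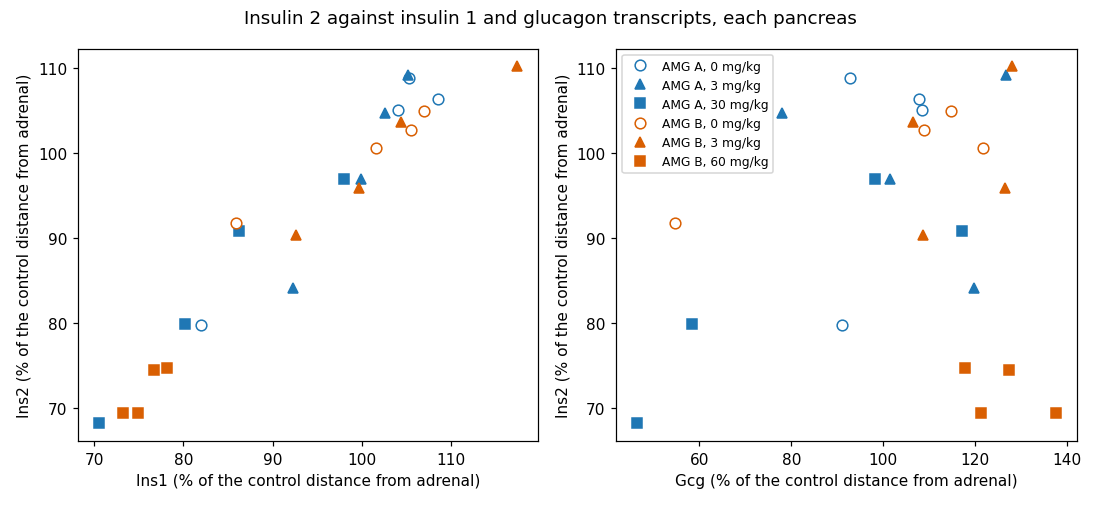
Percent of the control distance from adrenal for Ins2 against Ins1 (left) and against Gcg (right); each point is 1 pancreas, coloured by study and shaped by dose. Ins1 and Ins2 lie along a line, and the 4 animals on 60 mg/kg of AMG B (orange squares) combine low Ins2 (69.4% to 74.7%) with Gcg at 118% to 137%.

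At 3 mg/kg of AMG B no member was called. Only 7 of 31042 probe sets (0.0226%) passed there, and no member did at an unadjusted p under 0.05, beside 8.79% of all probe sets. Ins2 scored 2.23, 2.82, 2.63 and 2.40, within or near the control range, with a difference of 9.25e-05 (95% interval -0.433 to 0.433, limma adjusted p = 1.000). Ins1 scored 2.19, 2.89, 2.52 and 2.39 (difference 0.101, 95% interval -0.311 to 0.514, limma adjusted p = 0.910). Ppy scored 3.27, 0.551, 1.46 and 2.00, and its lowest animal was just above its highest control (difference 1.75, limma adjusted p = 0.672). Non-overlap above controls was seen in 1 of 9 members and in 1.89% of all probe sets.

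The animals on 60 mg/kg of AMG B were also compared with those on 3 mg/kg, a comparison that shares the 4 high-dose animals with the one above. Ins2 differed by -0.830 (95% interval -1.26 to -0.397, limma adjusted p = 0.0306) and Ins1 by -0.788 (-1.20 to -0.376, 0.0309), both without overlap. Mafa differed by -1.27 without overlap (limma adjusted p = 0.0550). Of 9 members, 2 were called lower, beside 1.22% of all probe sets (3.68% in either direction), and 3 were below without overlap, beside 5.06%. Both insulin calls were kept without animal 29 or 33 and lost without animal 30, 31, 32, 34, 35 or 36 (adjusted p of Ins2 0.0512 to 0.106). Animal 30, without which the p was highest, had the widest spread of scores of all 24 arrays (SD 1.99). Quantile normalization gave a difference of -0.641 for Ins2 (adjusted p = 0.188).

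At 30 mg/kg of AMG A no member was called, and 1 of 31042 probe sets (0.00322%) was. Ins1 scored 1.92, 2.59, 2.55 and 2.68 in controls and 2.04, 1.59, 2.38 and 1.86 at 30 mg/kg. Its difference was -0.467 (95% interval -0.880 to -0.0552, limma adjusted p = 0.691), and the groups overlapped through control animal 3009. Ins2 scored 1.82, 2.64, 2.54 and 2.57 in controls and 2.13, 1.49, 2.30 and 1.82 at 30 mg/kg (difference -0.455, limma adjusted p = 0.724). These 2 were the members with an unadjusted p under 0.05, beside 6.72% of all probe sets. They stood at 83.7% ± 11.5 and 83.9% ± 12.6 of their control distance (SD, n = 4).

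Animals 3034 and 3036 were low in glucagon as well as in insulin. Gcg scored 2.78, 0.848, 2.27 and 1.17 in animals 3033, 3034, 3035 and 3036, against 2.07 to 2.54 in controls (difference -0.547, limma adjusted p = 0.836). Animal 3034 had the lowest Ins1, Ins2 and Iapp (0.840) of the 24 pancreases, and its Gcg was the second lowest. Its array also had the narrowest spread of scores of the 24 (SD 1.15), and its mean over lymphocyte genes was 3.94. How far these bear on its islet values was not tested. Mafa scored 1.68, 0.798, 1.94 and 1.58, overlapping controls (difference -0.150, limma adjusted p = 0.954). Ppy scored -0.0166, -0.0908, 0.175 and 0.666 at 30 mg/kg and 0.703, 1.20, 6.77 and 3.97 at 3 mg/kg. Those groups did not overlap, and the difference of -2.98 (95% interval -5.36 to -0.597) had a limma adjusted p of 0.851. That was 1 of 9 members below without overlap, beside 2.05% of all probe sets, and none was called between these doses (0.00966% of all probe sets were). The doses of 30 mg/kg of AMG A and 60 mg/kg of AMG B differ and were not compared.

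The matched dose of both compounds was 3 mg/kg. AMG A at 3 mg/kg gave no called member, 1 called probe set in all (0.00322%) and no member at an unadjusted p under 0.05, beside 3.67% of all probe sets. Ins1 scored 2.51, 2.58, 2.43 and 2.22 (difference from control 0.000737, 95% interval -0.412 to 0.413, limma adjusted p = 1.000). The effect of AMG A minus that of AMG B was -0.101 for Ins1 (95% interval -0.684 to 0.482, limma adjusted p = 0.938) and -0.0350 for Ins2 (-0.647 to 0.577, 0.983). None of 9 pairs of effects was called, none of all 31042 probe sets was (0%), and 9.37% of them had an unadjusted p under 0.05. These intervals are wide, so the test does not show that they act alike at 3 mg/kg.

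**Figure D4:**
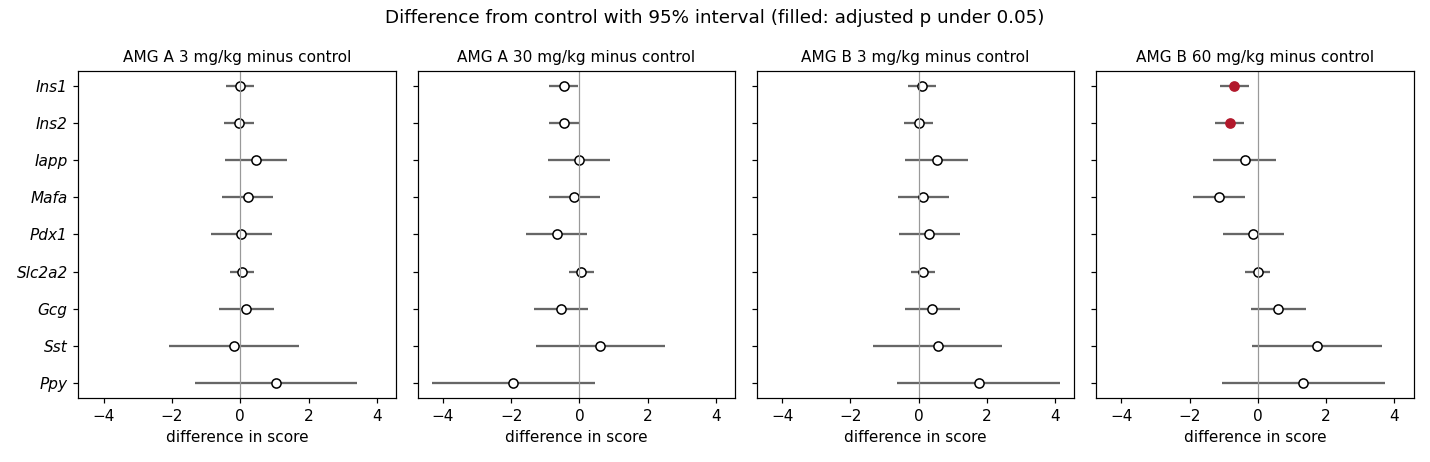
Difference in score from controls of the same study (horizontal axis, SD units) with its 95% interval for the 9 members at each dose; filled points passed an adjusted p under 0.05. Ins1 (-0.686) and Ins2 (-0.830) at 60 mg/kg of AMG B are the only filled points.

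Other genes of islet cells gave few calls at 60 mg/kg of AMG B. Over all genes, each at 1 probe set, 10.8% were called (5.95% higher, 4.90% lower) and the median difference was 0.0413. Of 14 measured genes for glucose sensing and secretion in beta cells, 2 fell and none rose: Kcnj11, the pore of the ATP-sensitive potassium channel (-1.92, limma adjusted p = 0.0313), and Ero1b, which serves disulfide formation in proinsulin (-0.762, 0.0470). The list's median difference was 0.0244. Of 11 islet transcription factors, Myt1 fell (-2.20, limma adjusted p = 0.00964) and the list's median was -0.209. Of 18 genes of prohormone processing and the dense-core granule, Ptprn2, a granule membrane protein, fell (-1.28, 0.0291), with a list median of -0.189. Of 9 genes of other islet endocrine cells, Ghrl, the ghrelin gene, fell (-1.66, 0.0323), with a list median of -0.249. No gene of these 4 lists rose at that dose, and none of them was called at 3 mg/kg of AMG B or at either dose of AMG A, where 0% of all genes at their lead probe set were called.

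Acinar genes moved beside the insulin genes. Of 27 acinar genes measured, 23 fell and none rose at 60 mg/kg of AMG B, with a median difference of -1.06. Their mean score ran from 2.22 to 2.81 in the 4 controls and from 1.47 to 1.62 in the 4 dosed animals. All 27 were below their control level, at a median of 65.9% of the control distance (range 37.2% to 84.8%), against 72.0% for Ins2 and 75.8% for Ins1, so both insulin genes lay within the acinar range. Of the 27 acinar genes 6 stood higher than Ins2 and 2 higher than Ins1. Quantile normalization left 2 of the 27 called lower, with a median of -0.652, and fitting only these 2 groups left 9. Of 12 duct genes 1 fell, Muc1 (-1.59), while the list's median was 0.716. Of 14 endothelial genes 4 fell: Kdr, the VEGF receptor (-0.734), Tek, the angiopoietin receptor (-1.62), Ptprb (-1.44) and Nos3 (-2.91). The mean over the 14 was -0.781, -0.508 and -0.617 in dosed animals 34, 35 and 36. In dosed animal 33 it was 0.923, above the control range of 0.182 to 0.414. Of 12 fibroblast genes 2 rose, Acta2 (2.28) and Lum (2.35), with a list median of 1.14. The groups overlapped for Lum. The mean fibroblast score was 3.18 and 3.04 in dosed animals 33 and 35, the pair with low Iapp, and 0.0641 and 1.01 in animals 34 and 36, against 0.141 to 1.27 in controls. The part of these cell types in the insulin and Iapp values was not tested.

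A wider set of probe sets gives the base for these percents. In the AMG B study 4439 probe sets were more than 2 units higher in control pancreas than in control adrenal, without overlap. At 60 mg/kg their median was 54.9% of the control distance (quartiles 34.4% and 76.9%), and 90.9% of them were below 100%. The same control arrays chose these probe sets and set their 100%. Ins1 at 75.8% and Ins2 at 72.0% thus lay within the quartiles, while Gcg at 126% and Sst at 190% lay above 100%, neither of them called. Controls ran from 54.6% to 122% for Gcg, where animal 28 alone was below 100%, and from 34.6% to 232% for Sst. At 3 mg/kg the median was 77.4%, with Ins2 at 100%, Ins1 at 104% and Gcg at 117%. In the AMG A study the 2769 such probe sets had a median of 91.3% at 30 mg/kg, beside 83.7% for Ins1 and 83.9% for Ins2.

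**Figure D5:**
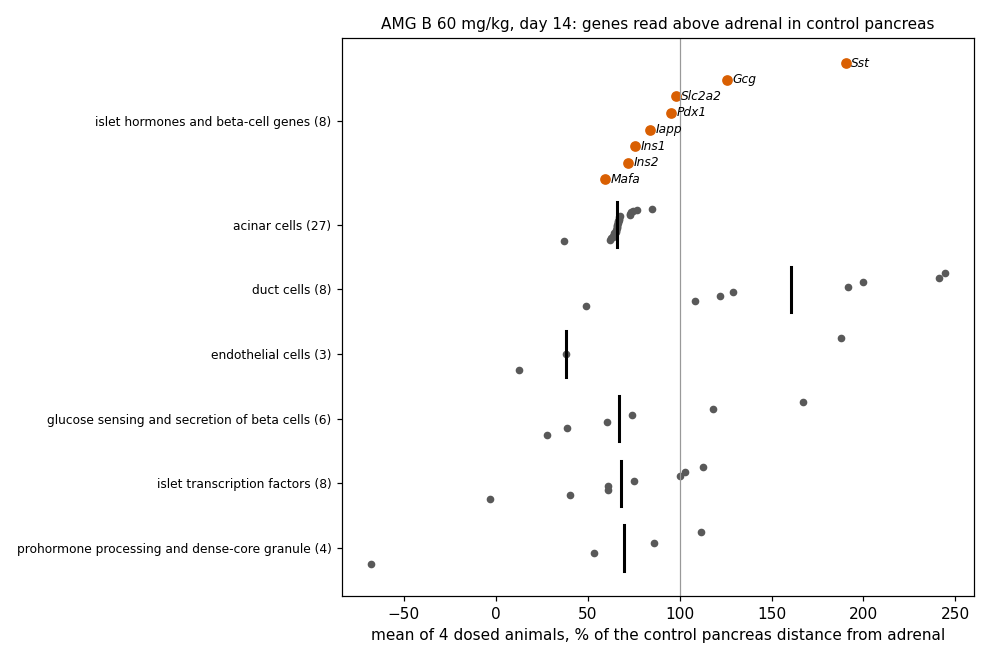
Mean of the 4 animals on 60 mg/kg of AMG B as a percent of the control distance from adrenal (horizontal axis) for members and list genes read above adrenal in every undosed pancreas; points are genes, thick lines list medians, and Ppy is left out because its control distance did not pass the test. Ins1 (75.8%) and Ins2 (72.0%) lie within the range of the acinar genes (37.2% to 84.8%), above their median of 65.9%, and Gcg (126%) and Sst (190%) lie beyond 100%.

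Lymphocyte genes were high in single pancreases of several groups. The mean score over the 10 measured lymphocyte genes exceeded 2 in 6 of 24 arrays, from 2.52 to 7.02: animals 3009 and 3011 (AMG A controls), 3034 (30 mg/kg), 29 and 31 (AMG B, 3 mg/kg) and 33 (60 mg/kg). Among the animals on 60 mg/kg of AMG B, animals 34, 35 and 36 were between -0.216 and -0.111. Insulin was as low in them as in animal 33, and whether lymphocytes had a part in its level was not tested. With the 6 arrays left out, a choice made after the data were seen, Ins2 differed by -0.856 (limma adjusted p = 0.0205), Ins1 by -0.709 (0.0432) and Mafa by -0.990 (0.0429) at 60 mg/kg against control.

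Across the 24 pancreases, after group means were subtracted, most members varied together. Of 36 pairs 33 had a Pearson r above 0, with a median of 0.479 and a range from -0.166 (Ppy and Pdx1) to 0.941 (Ins1 and Ins2). Mafa and Slc2a2 had r = 0.798, Iapp and Mafa 0.781 and Ins1 and Iapp 0.741. Ins1 and Gcg had r = 0.547, and Ins1 and Ppy 0.0283. These are descriptions without a test, since values of 1 animal share an array and its scaling.

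Among 14208 other genes, those most like Ins2 by that measure were Klk1b3 (r = 0.809), Ctnnb1, Hoxc8, Cald1 and Cadps (0.746), the last of which primes dense-core granules for release. Those most like Ins1 were Cln3 (0.796), Tcta, Syt16, Hoxc8 and Eif2ak1 (0.770). Those most like Gcg were Ndst1 (0.857), Nhlrc2, Tube1, Resp18 and Grk4 (0.775), with Resp18 a protein of endocrine granules. Sst was followed most closely by Scg2, a granin (0.843), Nudt14, Rmnd5b, Fam167a and Rhbdd2 (0.773). The genes most like Ppy were Asap1 (0.763), Mus81, Tmem38b, R3hdm2 and LOC102553131 (0.705).

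The same probe sets were read in adrenal and liver on day 14. In adrenal at 60 mg/kg of AMG B, 1 of 9 members was called, beside 5.96% of all probe sets: Ppy was higher by 0.393 (limma adjusted p = 0.000106), at -0.0581 ± 0.174 against -0.451 ± 0.0891 in controls (SD, n = 4 each). Both means were below that probe set's mean over the series. In liver at 60 mg/kg, Slc2a2 scored 1.86 ± 0.733 against 1.15 ± 0.184 in controls (SD, n = 4 each), a difference of 0.709 with a limma adjusted p of 0.0687. No member was called in liver at that dose, beside 5.66% of all probe sets, and 1 had an unadjusted p under 0.05, beside 19.4%.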

How the data were processed

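Total RNA of each tissue was labelled with biotin and hybridised to an Affymetrix rat array, per the labels. The authors deposited a score for each probe set and array. From the values, these are linear and scaled to mean 0 and SD 1 for each probe set over arrays of the series. This removes the absolute level of a probe set. How probes were summarised and arrays scaled is not stated in those sources. The planned log2 step was not possible with negative scores. Probe sets were named through the platform annotation. The 6 pancreas groups were fitted to scores with limma 3.58.1 in R 4.3.3 (lmFit, contrasts.fit, eBayes with trend), and the undosed tissues in a fit of 20 arrays. Tests were two-sided and adjusted over all 31042 probe sets of a contrast. The script was tested on simulated data. Members and lists were chosen with earlier results of these data known. The rule named every member, the 5 genes most like each hormone gene, and up to 4 called genes of a list. A gene with several probe sets was read at the one that varied most between tissues relative to its total variance. Replicates are numbered animals. A p-value sets a difference against the spread between animals, pooled over all groups of the fit and moderated across probe sets. Animal numbers tie tissues: deviations from group means correlated at a median of 0.0167 within animals (16 pairs) and -0.00573 between them (48 pairs). Alternatives were quantile normalization, only the groups compared, no trend, robust variances, 1 probe set a gene, the mean of a gene's probe sets, a filter on low scores, each animal left out and the animal as a block. Tables and figures used Python 3.11.15, pandas 2.3.3, biopython 1.88 and matplotlib 3.10.9.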

Additional observations from a re-analysis of the deposited data

Results flagged for a closer look

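Among 54 groups of 4 animals (9 members in 6 pancreas groups), 2 held an animal far from the other 3, and chance alone sets about 1 in 20 groups apart. Both were control animal 3009 of the AMG A study, with the lowest Ins2 (1.82, against 2.54 to 2.64 in the other 3) and the lowest Slc2a2 (-0.999, against -0.646 to -0.610). The same pancreas had the highest lymphocyte mean of the 24 (7.02) and the lowest acinar mean of its group (1.73). Without it the differences at 30 mg/kg of AMG A were -0.640 for Ins1 (limma adjusted p = 0.484) and -0.645 for Ins2 (0.515). The part of other cells in these values was not tested.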

How the results depend on the processing

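The count of members called at 60 mg/kg of AMG B was 2 against control and 2 against 3 mg/kg. Quantile normalization gave 0 and 0, and fitting only the groups compared gave 0 and 0, while 1 probe set a gene and the mean of a gene's probe sets each gave 3 and 3. Leaving out each animal in turn gave 1 to 3 and 0 to 3. Without the 2 arrays of widest spread (animals 30 and 3033, chosen after seeing the data) the counts were 3 and 0. Without the 6 arrays high in lymphocyte genes they were 3 and 3. Why quantile normalization ended the calls was not tested. The SD of all scores on an array was 1.25 to 1.37 at 60 mg/kg of AMG B. It was 1.37 to 1.49 in the controls of that study and 1.16 to 1.99 at 3 mg/kg. The fit of 2 groups rests on fewer arrays for its spread. All-probe-set counts at 60 mg/kg were 3067 against control and 1143 against 3 mg/kg, 1450 and 3 with only the groups compared, and 1824 to 2703 and 520 to 1421 with an animal left out (fewest without animal 26 and animal 30). The counts of 0 at both doses of AMG A, at 3 mg/kg of AMG B, between the AMG A doses and between the compounds stayed 0 under every alternative run and with each animal left out (0 to 0). The tissue counts of 9 (AMG A, adrenal), 8 (AMG B, adrenal) and 8 (liver) ran from 7 to 9, 8 to 8 and 8 to 8 with an animal left out, and were 8, 8 and 8 with the animal as a replicate block. Called differences kept their sign in all alternatives, while 92 of 1085 uncalled ones turned. A log2 transform was not run because scores go below 0. The number of arrays limits the precision, and signal over background is unknown.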
